A study of Mus musculus with 25 samples.

Results

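Tgfb1, Tgfb2, Tgfb3, Tgfbr1, Tgfbr2, Smad3, Smad7, Thbs1 and Ltbp2, 9 genes of transforming growth factor beta (TGF-beta) signalling, were followed in mouse aorta. They were chosen by symbol among the 23284 genes of an RNA abundance table, and all 9 were present and passed the filter on low values. The table holds 25 libraries of whole aortas from C57/BL6J male mice that were 8 weeks old when feeding began. DKO mice lack apolipoprotein E and apolipoprotein A-I, and EKO mice lack apolipoprotein E alone, so that every animal carries the Apoe knockout and none is wild type. Both genotypes were fed a high-fat Western-type diet (WD) or a normal laboratory chow diet (NLD) for 22 or 6 weeks. DKO on NLD at 6 weeks has 4 libraries and each of the other 7 groups has 3, named DKO WD, EKO WD, DKO NLD and EKO NLD at 22 weeks and likewise at 6 weeks. The comparisons ask how these genes differ with the loss of apolipoprotein A-I, with diet and with time on diet, in an artery that develops atherosclerosis.

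TGF-beta is secreted as a latent complex in which the mature ligand is held by its own propeptide. Latent TGF-beta binding proteins tether the related complexes to the matrix, and proteases, integrins or thrombospondin-1 can release the active ligand. The ligand then joins a type II receptor (Tgfbr2) with a type I receptor (Tgfbr1), which phosphorylates Smad2 and Smad3, while Smad7 is an induced inhibitor that acts on the type I receptor. In the artery wall the pathway is known for its effects on smooth muscle cells, matrix production and inflammation.

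The 250 bases before the start site of 4 of the members whose RNA changed are shown. Tgfb2 and Tgfbr1 were chosen because their levels had the highest correlation of any pair of members across libraries. Tgfb1 and Ltbp2 were set beside them. The sequences are from RefSeq (GRCm38.p6, the build named mm10 in the submitters' processing notes), are written in the direction of the gene, and end at the base before the start site, which for Ltbp2 lies inside the outer limit of the annotated gene. Capitals mark every match, on either strand, to CAGAC (the Smad motif, GTCTG on the other strand), TATAAA (the TATA box, TTTATA) and GGGCGG (the GC box, CCGCCC). No matches overlapped each other in these 4 windows.
Tgfb2, chr1:186705990-186706239, minus strand: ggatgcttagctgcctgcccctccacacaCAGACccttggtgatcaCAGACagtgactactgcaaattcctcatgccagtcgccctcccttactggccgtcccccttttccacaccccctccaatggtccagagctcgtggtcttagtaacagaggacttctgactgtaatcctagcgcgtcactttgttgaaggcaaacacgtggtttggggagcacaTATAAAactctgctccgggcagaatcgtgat
Tgfbr1, chr4:47352972-47353221, plus strand: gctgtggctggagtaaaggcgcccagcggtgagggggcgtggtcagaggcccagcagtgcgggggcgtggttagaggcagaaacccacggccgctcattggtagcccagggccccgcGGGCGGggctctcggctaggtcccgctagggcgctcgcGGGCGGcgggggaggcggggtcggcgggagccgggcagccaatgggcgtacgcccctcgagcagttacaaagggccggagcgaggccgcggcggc
Tgfb1, chr7:25686752-25687001, plus strand: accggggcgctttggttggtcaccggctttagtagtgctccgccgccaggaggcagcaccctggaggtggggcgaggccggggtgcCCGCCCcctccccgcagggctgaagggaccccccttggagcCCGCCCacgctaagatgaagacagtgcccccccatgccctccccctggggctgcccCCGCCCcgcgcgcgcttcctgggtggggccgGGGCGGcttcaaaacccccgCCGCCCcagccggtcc
Ltbp2, chr12:84876492-84876741, minus strand: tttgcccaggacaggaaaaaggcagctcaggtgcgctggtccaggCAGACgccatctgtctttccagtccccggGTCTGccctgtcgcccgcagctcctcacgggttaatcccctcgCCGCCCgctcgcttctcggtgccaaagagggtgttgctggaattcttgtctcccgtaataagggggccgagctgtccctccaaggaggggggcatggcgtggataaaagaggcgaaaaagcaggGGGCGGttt
The Smad motif occurred 2 times in the window of Tgfb2, 2 times in that of Ltbp2 and in neither of the others, and 42.2% of 32851 RefSeq promoter windows of this length hold it. Tgfb2 alone among the 4 has a TATA box match, which 12.4% of all windows hold. The GC box occurred 5 times in the window of Tgfb1, 2 times in that of Tgfbr1 and 2 times in that of Ltbp2, against 32.7% of all windows with at least 1. The GC content was 53.6% for Tgfb2, 74.8% for Tgfbr1, 75.2% for Tgfb1 and 61.6% for Ltbp2, beside a median of 52.4% over all windows. Tgfbr1 has a further window in the table, for a start site 32994 bases inside the gene, which held 1 Smad motif and no GC box, at a GC content of 52.8%. A further motif, TGAGTCA (the AP-1 motif, TGACTCA on the other strand), was found in none of the 4 and in 4.46% of all windows. Of the 9 members, 6 were in the promoter table, and Tgfb3, Smad7 and Thbs1 were not.

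Replicate 2 of EKO WD at 22 weeks is a partial library. Of 8693 genes with a mean over 5 FPKM, 68.5% are listed at 0 there, and 6 of the 9 members are among the genes at 0 (Tgfb1, Tgfbr1, Tgfbr2, Smad3, Smad7 and Thbs1). Its zeros were taken as missing, so these 6 genes have 2 values in that group and 24 in all, while Tgfb2, Tgfb3 and Ltbp2 have 3 and 25. The values are FPKM (fragments per kilobase of transcript, scaled to the mapped reads of a library), whose sum over genes was between 448239 and 556933 in the other 5 EKO libraries at 22 weeks, 152809 in the partial library and between 360421 and 415555 in the other 19. The labels mark the EKO libraries, and not the DKO libraries, as re-analysed older samples, so genotype and any difference in processing cannot be told apart. Apoa1, the gene of apolipoprotein A-I, had 0.135 to 1.08 FPKM in 13 DKO libraries and 0 to 1.97 FPKM in 11 EKO libraries, so its level in the aorta cannot check the labels. Apoe had 2.97 to 10.7 FPKM in DKO and 3.75 to 20.7 FPKM in EKO libraries. The smooth muscle markers Acta2, Tagln and Myh11 had means of 3166, 1636 and 576 FPKM over the libraries, so the defining markers of the aortic media were present. RNA of fat and blood was abundant as well. Mean levels were 1357 FPKM for the brown adipocyte marker Ucp1, 319 FPKM for the white adipocyte marker Adipoq and 5505 FPKM for the red cell marker Hba-a1.

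**Figure D1:**
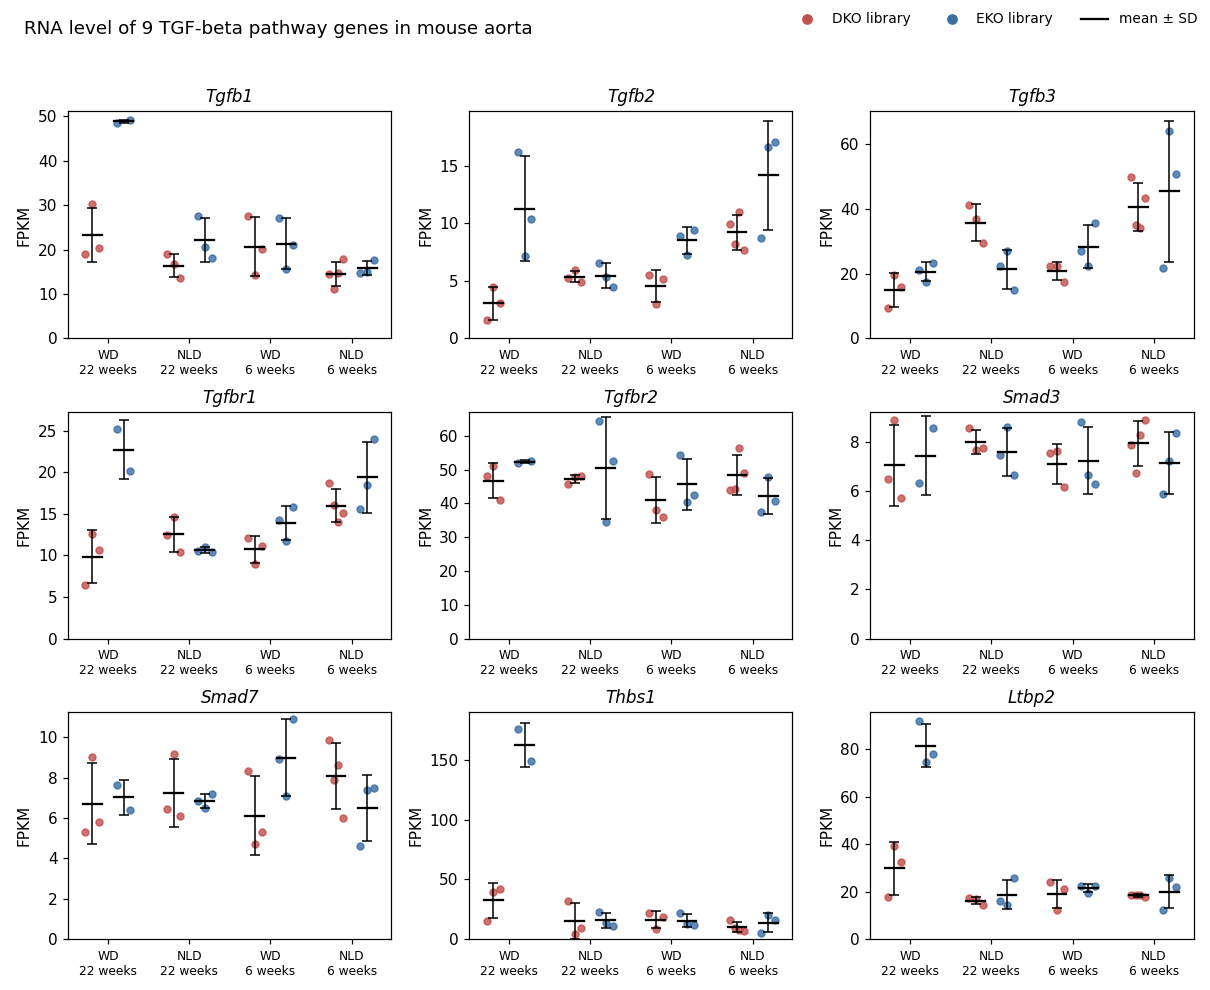
FPKM (vertical axis, linear, from 0) of the 9 genes in each library, by diet and weeks on diet. Points are single libraries (DKO red, EKO blue) and bars are the group mean and SD. The EKO WD libraries at 22 weeks lie above every other library for Tgfb1, Thbs1 and Ltbp2, and the 8 groups of Tgfbr2, Smad3 and Smad7 lie at similar levels.

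Among the ligands, Tgfb1 (chromosome 7, 25687002 to 25705077, plus strand) encodes the isoform best known from immune and vascular cells. It had 19.1, 30.2 and 20.3 FPKM in DKO WD at 22 weeks, against 48.6 and 49.1 FPKM in EKO WD at 22 weeks. The 2 EKO libraries lay above all others of the study, and the groups did not overlap. Over the remaining 6 groups the libraries ranged from 11.1 FPKM (DKO NLD at 6 weeks) to 27.6 FPKM (EKO NLD at 22 weeks). Ordered by mean, EKO WD at 22 weeks (48.8 FPKM) stood apart, and every later neighbour in the order, from DKO WD at 22 weeks (23.2 FPKM) to DKO NLD at 6 weeks (14.5 FPKM), overlapped the next. The log2 fold change of DKO over EKO on WD at 22 weeks was -1.07 (SE 0.26, adjusted p = 0.00573, limma on log2(FPKM + 1) with Benjamini-Hochberg adjustment over 12849 genes). That of WD over NLD in EKO at 22 weeks was 1.13 (SE 0.26, adjusted p = 0.00575), against 27.6, 20.6 and 18.1 FPKM on NLD. The genotype call was lost with only the groups compared in the fit.

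Tgfb2 (chromosome 1, 186622792 to 186705989, minus strand) encodes an isoform best known from development. It had 1.62, 4.47 and 3.05 FPKM in DKO WD at 22 weeks, against 16.2, 7.18 and 10.4 FPKM in EKO WD at 22 weeks, with no overlap and a log2 fold change of -1.6 (SE 0.29, adjusted p = 0.000364). On WD at 6 weeks it had 5.55, 3.00 and 5.21 FPKM in DKO, against 8.89, 7.24 and 9.47 FPKM in EKO. Those groups did not overlap either, but the difference of -0.80 (SE 0.29) missed the threshold (adjusted p = 0.568, limma), where 0.148% of all genes tested were called. On NLD it had 5.28, 5.91 and 4.94 FPKM in DKO and 6.58, 5.35 and 4.43 FPKM in EKO at 22 weeks. At 6 weeks on NLD the values were 9.99, 8.18, 10.97 and 7.71 FPKM in DKO and 8.75, 16.7 and 17.1 FPKM in EKO. Within each diet of the DKO mice, and on NLD in the EKO mice, the 22-week mean was thus the lower, and EKO on WD was the exception with means of 11.3 FPKM at 22 weeks and 8.53 FPKM at 6 weeks. The fall with time passed the test only on NLD in EKO (-1.19, SE 0.29, adjusted p = 0.00403), and it was -0.67 (SE 0.27, adjusted p = 0.685) on NLD in DKO.

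Tgfb3 (chromosome 12, 86056745 to 86079041, minus strand), the third mammalian ligand, was the most abundant of the ligands in all 4 NLD groups but EKO at 22 weeks, where Tgfb1 and Tgfb3 had means of 22.1 and 21.4 FPKM. It had 9.45, 19.6 and 15.8 FPKM in DKO WD and 41.0, 36.8 and 29.5 FPKM in DKO NLD at 22 weeks. Those groups did not overlap, and the log2 fold change of WD over NLD was -1.25 (SE 0.31, adjusted p = 0.0495), a call that 26 of 34 alternatives lost. In EKO at 22 weeks the values were 21.1, 17.3 and 23.3 FPKM on WD and 22.3, 26.9 and 14.9 FPKM on NLD. At 6 weeks Tgfb3 had 22.3, 22.3 and 17.5 FPKM in DKO WD, against 49.7, 34.9, 34.0 and 43.4 FPKM in DKO NLD. This difference, -0.93 (SE 0.29, adjusted p = 0.0647), missed the threshold although the libraries did not overlap, where 5.2% of all genes tested were called. EKO NLD at 6 weeks was the most variable group, with 21.6, 64.0 and 50.7 FPKM, and the fall to 22 weeks on that diet was -0.96 (SE 0.31, adjusted p = 0.0234). Without EKO NLD replicate 2 at 6 weeks this fall was -0.65 (adjusted p = 0.132), without replicate 3 of that group -0.81 (adjusted p = 0.103), and without EKO NLD replicate 3 at 22 weeks -0.73 (adjusted p = 0.119).

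The makeup of ligand RNA, as each ligand's share of the summed FPKM of Tgfb1, Tgfb2 and Tgfb3, is given as a description. Tgfb1 made up 56.9% ± 5.82 in DKO WD (SD, n = 3) and 57.9% ± 1.96 in EKO WD at 22 weeks (SD, n = 2). On NLD at 22 weeks its share was 28.5% ± 0.443 in DKO and 45.4% ± 5.58 in EKO (SD, n = 3 each). Its smallest shares were on NLD at 6 weeks, 22.7% ± 3.12 in DKO (SD, n = 4) and 22.96% ± 8.74 in EKO (SD, n = 3). The share of Tgfb3 ran the other way, at 35.96% in DKO WD and 26.3% in EKO WD at 22 weeks, 62.0% in DKO NLD at 22 weeks and 62.8% in DKO NLD at 6 weeks. Tgfb2 stayed the smallest of the shares in every group, at 7.12% to 18.96%. On WD at 22 weeks the share of Tgfb2 was 5.36% to 8.22% in DKO and 12.6% to 18.9% in EKO, with no overlap, and the summed level was 30.1 to 54.3 FPKM in DKO and 82.8 to 86.0 FPKM in EKO.

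**Figure D2:**
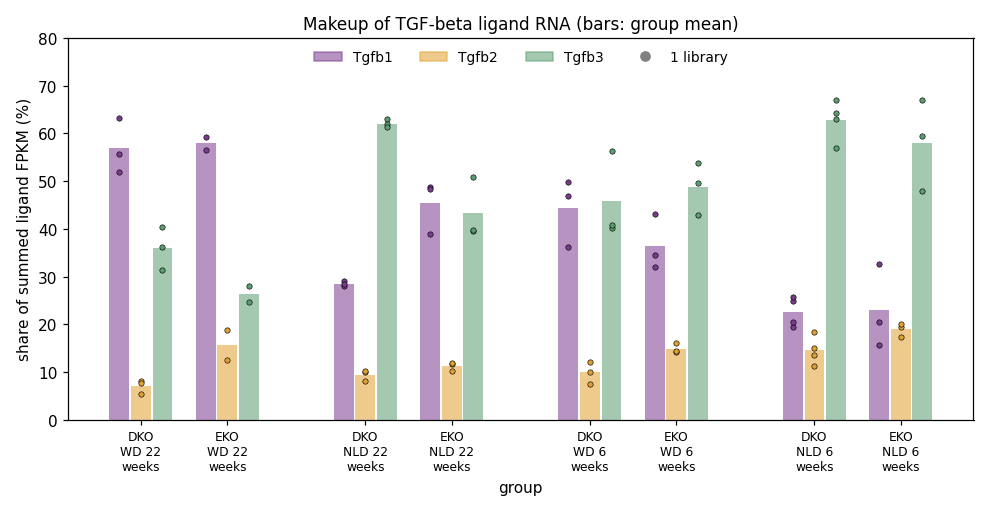
Share (%) of each ligand gene in the summed FPKM of Tgfb1, Tgfb2 and Tgfb3, by group. Bars are group means and points single libraries. Tgfb1 had the largest share in both WD groups at 22 weeks (56.9% in DKO, 57.9% in EKO), and Tgfb3 in both NLD groups at 6 weeks (62.8% in DKO, 58.1% in EKO).

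Of the receptor genes, Tgfbr1 was called in several comparisons and Tgfbr2 in none. Tgfbr1 (chromosome 4, 47353222 to 47414931, plus strand), the type I receptor kinase, had 6.44, 12.6 and 10.6 FPKM in DKO WD at 22 weeks, against 25.2 and 20.2 FPKM in EKO WD at 22 weeks. Both EKO libraries were above the DKO libraries, and the log2 fold change was -1.16 (SE 0.22, adjusted p = 0.000649). This call was lost with only the groups compared in the fit. EKO NLD at 22 weeks had 10.6, 10.998 and 10.4 FPKM, the narrowest group of this gene, and WD over NLD in EKO was 1.02 (SE 0.22, adjusted p = 0.00328). Its levels at 6 weeks were 12.1, 8.94 and 11.2 FPKM in DKO WD, 14.3, 11.7 and 15.8 FPKM in EKO WD, 18.7, 16.1, 14.1 and 15.1 FPKM in DKO NLD, and 15.6, 18.5 and 23.99 FPKM in EKO NLD. At 6 weeks both genotypes were thus lower on WD by mean, without passing the test (-0.54, adjusted p = 0.0807 in DKO and -0.44, adjusted p = 0.205 in EKO). Tgfbr1 fell with time on NLD in EKO (-0.78, SE 0.19, adjusted p = 0.00533) and rose with time on WD in EKO (0.67, SE 0.22, adjusted p = 0.0371).

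Tgfbr2 (chromosome 9, 116084293 to 116175360, minus strand), the type II receptor that binds the ligand first, had a higher mean FPKM than Tgfbr1 in all 8 groups. It had 48.2, 51.2 and 40.9 FPKM in DKO WD at 22 weeks, against 52.0 and 52.6 FPKM in EKO WD at 22 weeks. Although these libraries did not overlap, the difference was -0.17 (SE 0.20, adjusted p = 0.621). Over all 24 libraries Tgfbr2 lay between 34.6 and 64.3 FPKM, its highest group mean was 1.28 times its lowest, and it was called in none of the 12 comparisons (limma, none with an unadjusted p under 0.05). Left out in turn, 1 library brought a call: without EKO NLD replicate 2 at 22 weeks, Tgfbr2 was higher at 22 than at 6 weeks in EKO on NLD (0.47, adjusted p = 0.0319, against 0.22 and 0.35 with it).

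Neither Smad gene was called in any of the 12 comparisons. Smad3 (chromosome 9, 63646767 to 63757994, minus strand), the transcription factor that the type I receptor activates, had 6.48, 8.89 and 5.73 FPKM in DKO WD at 22 weeks, against 6.30 and 8.56 FPKM in EKO WD at 22 weeks. Its group means spanned 7.03 to 7.98 FPKM, the narrowest span of the 9 genes, and its 24 libraries 5.73 to 8.89 FPKM. Over the 12 comparisons its log2 fold changes lay between -0.18 and 0.14, with standard errors up to 0.18. Smad7 (chromosome 18, 75367529 to 75395935, plus strand), the inhibitory Smad, had 5.33, 9.04 and 5.79 FPKM in DKO WD at 22 weeks, against 7.64 and 6.41 FPKM in EKO WD at 22 weeks, with overlap. Its widest gap was on WD at 6 weeks, with 8.35, 4.73 and 5.29 FPKM in DKO, against 8.95, 7.10 and 10.9 FPKM in EKO. That difference of -0.50 (SE 0.22) had an unadjusted p of 0.037 and an adjusted p of 0.66 (limma).

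Thbs1 (chromosome 2, 118111876 to 118127133, plus strand) encodes thrombospondin-1, a matrix glycoprotein that can activate latent TGF-beta and is itself raised by many stimuli. It had 15.4, 39.7 and 42.1 FPKM in DKO WD at 22 weeks, against 176 and 149.6 FPKM in EKO WD at 22 weeks. The groups did not overlap, and outside WD at 22 weeks the highest library was DKO NLD replicate 1 at 22 weeks with 32.2 FPKM, whose other replicates had 4.63 and 8.97 FPKM. In EKO NLD at 22 weeks it had 22.9, 13.5 and 11.1 FPKM, and in EKO WD at 6 weeks 21.7, 12.9 and 11.4 FPKM. The group mean in EKO WD at 22 weeks, 162.8 FPKM, was 10.3 times that on NLD at 22 weeks and 10.6 times that on WD at 6 weeks. The log2 fold changes were 3.34 (SE 0.65, adjusted p = 0.0015) for diet and 3.37 (SE 0.65, adjusted p = 0.000808) for time. For DKO over EKO on WD at 22 weeks it was -2.41 (SE 0.65, adjusted p = 0.0111). That call was lost without DKO WD replicate 1 (-1.96, adjusted p = 0.0551), EKO WD replicate 1 (-2.30, adjusted p = 0.0779) or EKO WD replicate 3 (-2.53, adjusted p = 0.0536) at 22 weeks.

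Ltbp2 (chromosome 12, 84783212 to 84876532, minus strand) encodes a latent TGF-beta binding protein family member that, unlike its relatives, is not known to bind latent TGF-beta itself and is a component of elastic fibre microfibrils. It had 17.6, 39.1 and 32.6 FPKM in DKO WD at 22 weeks, against 91.7, 74.7 and 78.0 FPKM in EKO WD at 22 weeks. All 3 EKO libraries, the partial one included, lay above every other library. Outside the WD groups at 22 weeks its 19 libraries lay between 12.2 and 25.9 FPKM. The log2 fold change of DKO over EKO was -1.49 (SE 0.28, adjusted p = 0.00053), that of WD over NLD in EKO at 22 weeks 2.10 (SE 0.28, adjusted p = 3.55e-05), and that of 22 over 6 weeks in EKO on WD 1.88 (SE 0.28, adjusted p = 4.21e-05). All 3 calls held under all 34 alternatives. In DKO at 22 weeks WD exceeded NLD (17.2, 16.7 and 14.4 FPKM) in every library, with a log2 fold change of 0.78 (SE 0.28) that missed the threshold (adjusted p = 0.132).

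Read by comparison, of the 4 genotype comparisons only that on WD at 22 weeks had members called. There 5 of 9 members were lower in DKO than in EKO (Tgfb1, Tgfb2, Tgfbr1, Thbs1 and Ltbp2) and none was higher, while 18.5% of all 12849 genes tested were lower and 2.92% higher. The median log2 fold change was -1.07 over the 9 members and -0.10 over all genes tested. Macrophage markers moved with this difference. Their 8 genes, led by Lgals3, Cd68 and Trem2, summed to 171 to 312 FPKM in DKO WD and 1380.1 to 1549 FPKM in EKO WD at 22 weeks, 6 of the 8 were lower in DKO, and none was at 0 in either group. The 7 smooth muscle markers summed to 982 to 3622 FPKM in DKO WD and 3439 to 3585 FPKM in EKO WD, and none of them was called. The part of these cell types in the result was not tested, and fewer cells of a type and less RNA per cell cannot be told apart in bulk tissue. In the other genotype comparisons no member was called, where 0.148% (WD at 6 weeks), 7.84% (NLD at 22 weeks) and 0.14% (NLD at 6 weeks) of all genes were. By unadjusted p under 0.05 in limma there were 2 members on WD at 6 weeks (Tgfb2 and Smad7), 1 on NLD at 22 weeks (Tgfb3) and 0 on NLD at 6 weeks.

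**Figure D3:**
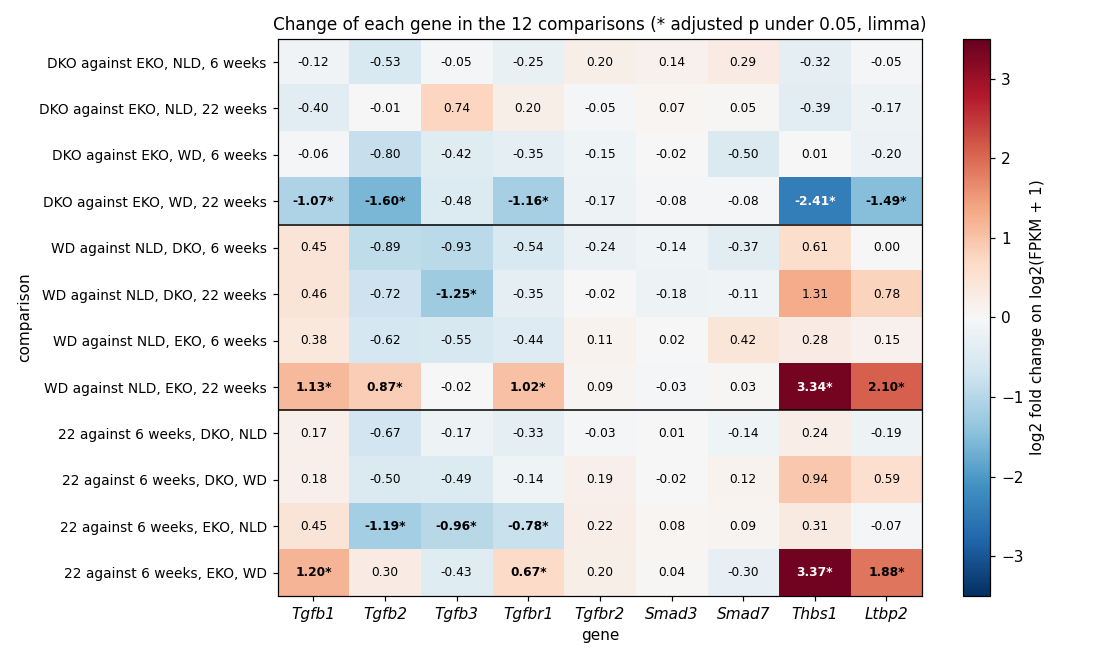
Log2 fold change on log2(FPKM + 1) of each gene (columns) in the 12 comparisons (rows), with the group named first over the group named second. Red is higher and blue lower in the group named first, and an asterisk marks an adjusted p under 0.05 in limma. Of 18 calls, 5 are in DKO against EKO on WD at 22 weeks, 5 in WD against NLD in EKO at 22 weeks and 4 in 22 against 6 weeks in EKO on WD, which share the EKO WD libraries at 22 weeks.

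With diet, 5 of 9 members rose on WD in EKO at 22 weeks, where 10.4% of all genes tested were higher and 9.14% lower, and they are those that were lower in DKO on WD. Tgfb2 was the weakest of the 5, at 0.87 (SE 0.29, adjusted p = 0.0375). These comparisons share the EKO WD libraries at 22 weeks, so they are not independent of each other. Without EKO WD replicate 1 at 22 weeks only Thbs1 and Ltbp2 were called, and the values of the others were 1.14 (adjusted p = 0.0516) for Tgfb1, 0.60 (adjusted p = 0.278) for Tgfb2 and 0.86 (adjusted p = 0.0718) for Tgfbr1. The Tgfb2 call was also lost without EKO WD replicate 3 (0.89, adjusted p = 0.0647), EKO NLD replicate 2 (0.87, adjusted p = 0.0743) or EKO NLD replicate 3 (0.76, adjusted p = 0.131) at 22 weeks. All 8 macrophage markers rose in this comparison, with summed levels of 1380.1 to 1549 FPKM on WD and 169 to 289 FPKM on NLD. Of 5 white adipocyte markers 3 were lower, with sums of 684 to 804 FPKM on WD and 1568 to 2099.8 FPKM on NLD. Of 5 brown adipocyte markers 2 were lower (658 to 2275 and 2681 to 5178 FPKM), and of 5 red cell markers 1 was lower. Of 4 chondrocyte-like markers tested 3 were higher, and of 6 fibroblast markers 1 was higher. The part of these cell types was not tested. In DKO at 22 weeks only Tgfb3 was called, as a fall on WD, beside 0.911% of all genes called lower. At 6 weeks no member was called with diet in DKO (3 at an unadjusted p under 0.05 in limma, Tgfb2, Tgfb3 and Tgfbr1, all lower on WD) or in EKO (2, Tgfb2 and Tgfbr1, both lower on WD), where 5.2% and 0.335% of all genes were called.

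With time, 4 members were higher at 22 than at 6 weeks in EKO on WD (Tgfb1 at 1.20, Tgfbr1 at 0.67, Thbs1 at 3.37 and Ltbp2 at 1.88), where 14.8% of all genes tested were higher. All 8 macrophage markers were higher as well, summing to 1380.1 to 1549 FPKM at 22 weeks and 135 to 262 FPKM at 6 weeks, and 4 of the 7 smooth muscle markers were lower, summing to 3439 to 3585 FPKM at 22 weeks and 4323 to 9218 FPKM at 6 weeks. The rise of Tgfbr1 was lost without EKO WD replicate 1 (0.69, adjusted p = 0.06) or replicate 2 (0.56, adjusted p = 0.117) at 6 weeks, and without EKO WD replicate 1 (0.51, adjusted p = 0.284) or replicate 3 (0.82, adjusted p = 0.0537) at 22 weeks. On NLD in EKO, 3 members fell (Tgfb2, Tgfb3 and Tgfbr1) beside 11.2% of all genes called lower and 25.4% called higher. Here 5 of the 7 smooth muscle markers were lower, with sums of 4051 to 5729 FPKM at 22 weeks and 8985 to 10639.9 FPKM at 6 weeks. Of the macrophage markers 4 of 8 were higher (169 to 289 FPKM at 22 weeks and 62.5 to 90.5 FPKM at 6 weeks), and of 5 white adipocyte markers 4 were higher (1568 to 2099.8 FPKM at 22 weeks and 610.01 to 828 FPKM at 6 weeks). Of 5 brown adipocyte markers 3 were higher, with sums of 2681 to 5178 FPKM at 22 weeks and 772 to 1207 FPKM at 6 weeks. Of 5 red cell markers 2 were higher, with sums of 15028 to 33807 FPKM at 22 weeks and 5793 to 7521 FPKM at 6 weeks. None of these markers was at 0 in any group, and their part in the changes with time was not tested. The median over all genes there was 0.12, and when each library was rescaled to a common median ratio 50.9% of the calls over all genes were higher, against 69.4% without rescaling, and the 3 members were still called. With the same rescaling the higher share of calls was 62.8% for 22 over 6 weeks in EKO on WD, against 76.9% without, 25.8% for DKO over EKO on WD at 22 weeks, against 13.6%, and 28.7% for DKO over EKO on NLD at 22 weeks, against 18.5%. It ended the calls of Tgfbr1 for 22 over 6 weeks in EKO on WD (0.58, adjusted p = 0.0784) and of Tgfb3 for WD over NLD in DKO at 22 weeks (-1.17, adjusted p = 0.0713). No member was called with time in DKO on either diet, where 0.226% (WD) and 0.0545% (NLD) of all genes were called, and 1 member on each diet had an unadjusted p under 0.05 in limma (Ltbp2 at 0.59 on WD and Tgfb2 at -0.67 on NLD).

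Differences between these effects were tested directly. At 22 weeks the diet effect differed between the genotypes for Tgfb2 (-1.59, SE 0.40, adjusted p = 0.03) and Tgfbr1 (-1.36, SE 0.29, adjusted p = 0.0125), beside 3.57% of all genes lower. Their diet effects had opposite signs, being -0.72 in DKO and 0.87 in EKO for Tgfb2, and -0.35 in DKO and 1.02 in EKO for Tgfbr1. Ltbp2 (-1.32, adjusted p = 0.0582), Tgfb3 (-1.22, adjusted p = 0.119) and Thbs1 (-2.03, adjusted p = 0.179) missed the threshold, so a genotype difference in their diet effect was not shown. Ltbp2 did pass under some alternatives, among them a pseudocount of 5 (-1.22, adjusted p = 0.0312, limma). Without EKO NLD replicate 1 at 6 weeks, Ltbp2 (adjusted p = 0.0346) and Tgfb3 (adjusted p = 0.0477) passed. Neither the Tgfb2 call nor the Tgfbr1 call held in every fit that left out 1 library. Without EKO WD replicate 1 at 22 weeks both were lost (-1.31, adjusted p = 0.102 for Tgfb2 and -1.21, adjusted p = 0.0798 for Tgfbr1). Tgfb2 was also lost without any 1 of 6 other libraries at 22 weeks, DKO NLD replicate 1 (adjusted p = 0.0698) or 2 (0.0625), DKO WD replicate 1 (0.0864), EKO NLD replicate 2 (0.0524) or 3 (0.0749) and EKO WD replicate 3 (0.0509). In EKO the diet effect at 22 weeks exceeded that at 6 weeks for Tgfb2 (1.5, SE 0.40, adjusted p = 0.0153), Tgfbr1 (1.45, SE 0.29, adjusted p = 0.00384), Thbs1 (3.06, SE 0.87, adjusted p = 0.0199) and Ltbp2 (1.95, SE 0.39, adjusted p = 0.0035), beside 9.45% of all genes higher. For Tgfb2 and Thbs1 that call was lost without EKO WD replicate 1 at 22 weeks (1.22, adjusted p = 0.0725 and 2.95, adjusted p = 0.095), and for Thbs1 also without EKO NLD replicate 3 at 6 weeks (2.86, adjusted p = 0.0516). On WD the time effect of Ltbp2 differed between the genotypes (-1.29, SE 0.39, adjusted p = 0.0433, beside 7.73% of all genes lower), a call that 23 of 34 alternatives lost. No member was called for diet by genotype at 6 weeks, time by genotype on NLD or diet by time in DKO, where 0.0311%, 3.87% and 0.0389% of all genes were, and at an unadjusted p under 0.05 in limma there was 1 member in the first (Smad7, -0.79) and 0 in the others.

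Averaged over the other factors, each factor was tested over all 8 groups. Tgfb2, Tgfb3 and Ltbp2 had 25 libraries in these tests and the other members 24, without the partial library. DKO were lower than EKO in Tgfb1 (-0.41, SE 0.12), Tgfb2 (-0.73, SE 0.14), Tgfbr1 (-0.39, SE 0.10) and Ltbp2 (-0.48, SE 0.14), with adjusted p between 0.000909 and 0.02, beside 15.8% of all genes lower. WD raised Tgfb1 (0.60, SE 0.12), Thbs1 (1.39, SE 0.29) and Ltbp2 (0.76, SE 0.14) and lowered Tgfb3 (-0.69, SE 0.15), with adjusted p between 0.000527 and 0.00332, where 8.49% of all genes were higher and 13.9% lower. With time Tgfb1 (0.50), Thbs1 (1.22) and Ltbp2 (0.55) rose and Tgfb2 (-0.51) and Tgfb3 (-0.51) fell, with adjusted p between 0.00436 and 0.0195, where 16.8% were higher and 8.51% lower. On these averages Tgfb1 and Tgfb3 thus moved in opposite directions with both diet and time. All of the averages include EKO WD at 22 weeks, and by genotype single comparisons had members called only on WD at 22 weeks. Some effects were near 0 or had the other sign in single comparisons. DKO over EKO was 0.20 for Tgfbr1 on NLD at 22 weeks. WD over NLD was 0 in DKO and 0.15 in EKO for Ltbp2 at 6 weeks, and -0.02 for Tgfb3 in EKO at 22 weeks. With time in EKO on WD, Tgfb2 had 0.30. Tgfbr2, Smad3 and Smad7 were called for no factor. Cell type markers moved with these changes, since all 8 macrophage markers were higher and all 7 smooth muscle markers lower both on WD (medians of 0.89 and -0.74) and at 22 weeks (medians of 1.15 and -0.82), and 4 of the 8 macrophage markers were lower in DKO. Of 5 red cell markers 4 were lower in DKO as well. The part of these cell types was not tested.

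The pathway around the members was read from 4 lists of other genes. For latency and activation 12 of 15 genes could be tested, and Ltbp4, Itgb5 and Ltbp3 had the highest mean levels, at 210.3, 105 and 78.9 FPKM. In DKO against EKO on WD at 22 weeks 5 of the 12 were lower and none higher, with a median of -0.77 beside -0.10 over all genes, of which 18.5% were lower. The clearest were Mmp14, a membrane protease (-1.69, SE 0.26, adjusted p = 8.11e-05), Thbs2, a relative of Thbs1 (-1.45), and Mmp2, a gelatinase that Mmp14 activates (-1.44). Mmp14 had 19.1, 37.8 and 29.7 FPKM in DKO WD, against 82.8, 85.6 and 110.5 FPKM in EKO WD at 22 weeks, with no overlap. In EKO at 22 weeks 5 of the 12 rose on WD, led by Mmp14 (2.02), the integrin chain Itgav (0.97) and Mmp2 (1.41), with a median of 0.48 beside -0.06 and with 10.4% of all genes higher. In DKO at 6 weeks 4 fell on WD, among them Fbn1 (-0.98), the fibrillin that anchors latent complexes, Itgav (-0.66) and Thbs2 (-0.90), beside 3.63% of all genes.

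Other receptors and Smads were read in the same way. Of 10 co-receptor and other receptor genes tested, in which Eng, Acvrl1 and Bmpr1a led by level (60.2, 23.7 and 21.7 FPKM), DKO on WD at 22 weeks were lower in Cd109 (-1.28, SE 0.32), a co-receptor that restrains TGF-beta signalling, and higher in Acvr2a (0.38, SE 0.12), an activin receptor, which is 1 of 10 in each direction where 18.5% of all genes were lower and 2.92% higher. In EKO at 22 weeks WD raised Cd109 (1.29) and Acvr1b (0.62) and lowered Tgfbr3 (-0.48), the co-receptor betaglycan, where 10.4% of all genes were higher and 9.14% lower. Of 18 Smad and regulator genes, in which Fkbp1a, Pmepa1 and Ski led by level (99.0, 56.8 and 38.7 FPKM), 2 were lower in DKO on WD at 22 weeks, a smaller share than the 18.5% of all genes, with a median of -0.06 beside -0.10. They were Tgif1, a corepressor of Smad2 and Smad3 (-1.15, SE 0.20, adjusted p = 0.000361), and Fkbp1a, a protein that binds the type I receptor (-0.53, SE 0.14). Tgif1 had 7.17, 7.06 and 7.68 FPKM in DKO WD, against 17.9 and 17.0 FPKM in EKO WD at 22 weeks. In EKO at 22 weeks WD raised Tgif1 (1.55) and the corepressor Skil (0.56), 2 of 18 where 10.4% of all genes were higher.

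Of 22 genes that textbooks list as responsive to TGF-beta, in which Acta2, Tagln and Bgn led by level, 13 were lower in DKO than in EKO on WD at 22 weeks and none was higher. Their median was -1.25 beside -0.10 over all genes, and 18.5% of all genes were lower. The clearest were the collagen genes Col1a1 (-2.13, SE 0.36, adjusted p = 0.000202) and Col3a1 (-1.86, SE 0.32, adjusted p = 0.000261) and the matricellular gene Postn (-1.96, SE 0.37, adjusted p = 0.000634). Mean Col1a1 was 166.6 ± 66.7 FPKM in DKO WD and 688 ± 93.9 FPKM in EKO WD at 22 weeks (SD, n = 3 each), with no overlap. In EKO at 22 weeks 10 of the 22 rose on WD, led by Timp1, a protease inhibitor (2.78), Col3a1 (1.80) and fibronectin, Fn1 (2.18), with a median of 0.88 beside -0.06 and with 10.4% of all genes higher. On NLD in EKO 11 of the 22 were lower at 22 than at 6 weeks, led by Postn (-1.68), Col3a1 (-1.54) and Col1a2 (-1.29), with a median of -1.01 beside 0.12 and with 11.2% of all genes lower. The 7 smooth muscle markers, of which 5 were lower in that comparison, had a median of -0.97. In DKO, WD lowered 2 of the 22 at 22 weeks, Postn (-1.58) and the smooth muscle actin gene Acta2 (-1.79), and 4 at 6 weeks, all of them matrix genes, where 0.911% and 3.63% of all genes were lower. Acta2 and Tagln are also among the 7 smooth muscle markers, whose sum was 982 to 3622 FPKM in DKO WD and 5276 to 7853 FPKM in DKO NLD at 22 weeks, and the part of that cell type was not tested.

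**Figure D4:**
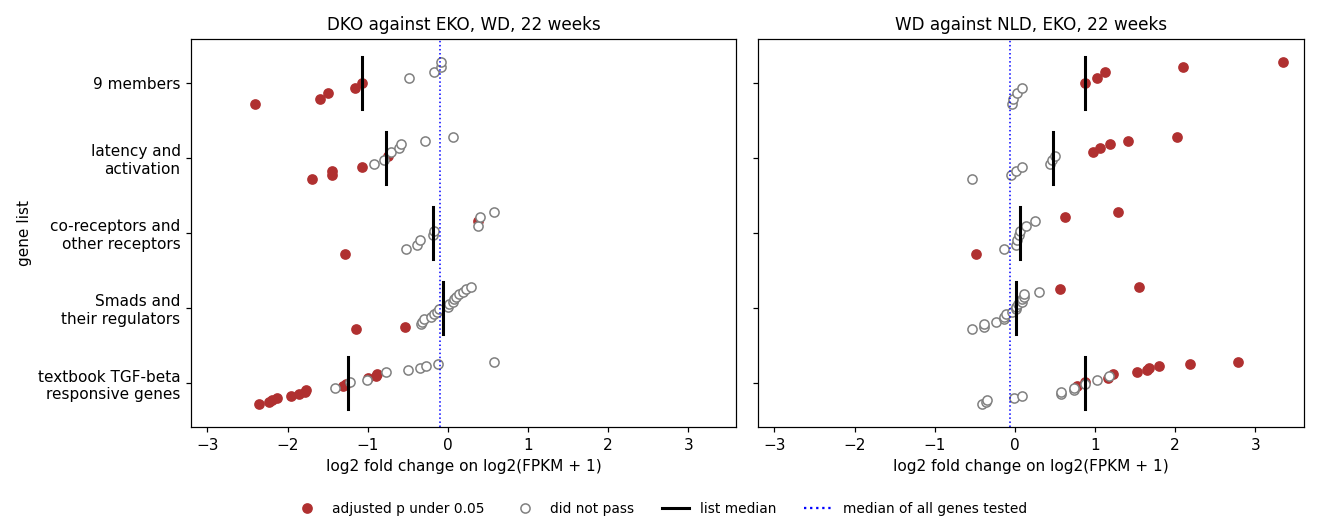
Log2 fold change on log2(FPKM + 1) of the 9 members and of the genes of 4 pathway lists, for DKO against EKO on WD at 22 weeks (left) and WD against NLD in EKO at 22 weeks (right). Filled points passed an adjusted p under 0.05 in limma, open points did not, black bars are list medians and the dotted line is the median of all genes tested. On the left the members' median is -1.07 and that of the responsive genes -1.25, beside -0.10 for all genes.

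Relations among the members were computed over 22 libraries, without EKO WD at 22 weeks, whose libraries stand apart for Tgfb1, Thbs1 and Ltbp2. The levels of Tgfb2 and Tgfbr1 had the highest correlation of the 36 pairs (Pearson r = 0.91, Spearman rho = 0.86, adjusted permutation p = 0.00018 and 0.00036, two-sided). The coefficient was 0.85 without the 2 libraries farthest from the median of Tgfb2 and 0.79 for deviations from the group means. Tgfb3 followed both, with r = 0.83 for Tgfbr1 (rho = 0.76, adjusted permutation p = 0.00024 and 0.0017, 0.67 within groups) and 0.81 for Tgfb2 (rho = 0.75, adjusted permutation p = 0.00018 and 0.0016, 0.69 within groups). Thbs1 had r = 0.67 with Ltbp2 (rho = 0.56, adjusted permutation p = 0.0045 and 0.055) and 0.62 with Tgfb1 (rho = 0.65, adjusted permutation p = 0.014 and 0.011), and these were 0.58 and 0.48 within groups. Without the 2 farthest libraries r was 0.74 for Tgfb3 and Tgfbr1, 0.71 for Tgfb2 and Tgfb3, 0.62 for Thbs1 and Ltbp2 and 0.55 for Tgfb1 and Thbs1. Tgfb1 had negative coefficients with the other ligands, -0.22 with Tgfb2 and -0.34 with Tgfb3, that did not pass (adjusted permutation p = 0.52 and 0.29), while for deviations from the group means they were positive, at 0.63 and 0.40. Within groups the coefficients were positive for all 36 pairs, from 0.01 (Tgfbr1 and Tgfbr2) to 0.79. Some pairs that did not pass were as high there as those that did. Smad7 had 0.78 with Tgfb2 and 0.76 with Tgfbr1, and Ltbp2 had 0.75 with Tgfb2 and 0.71 with Tgfbr1. The smallest unadjusted p that these permutations can give is 1e-05. Libraries were permuted without regard to group, so these p-values also take in differences between group means. They do not measure whether 2 genes vary together within groups, and the coefficients within groups were not tested.

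Over 24 libraries (all but the partial one), and across all genes tested, the genes most like each member by Pearson r of log2(FPKM + 1) were found as a description. For Tgfb1 they were Tcirg1, a subunit of the vacuolar proton pump, and Cyba, a subunit of the phagocyte NADPH oxidase, both at 0.96. For Tgfb2 the kinase gene Stk38l had 0.92. Tgfb3 was most like 2310022B05Rik (0.96) and Lmcd1 (0.94). Tgfbr1 was most like Msn (0.96), the gene of the membrane linker moesin, and Mapre1 (0.94), that of a microtubule end-binding protein. Thbs1 was most like Litaf and the hyaluronan receptor gene Cd44, both at 0.95, and Ltbp2 like the annexin genes Anxa4 and Anxa1, both at 0.93. The highest r was 0.76 for Tgfbr2 (Sh2b3), 0.78 for Smad3 (Zfp521) and 0.77 for Smad7 (Snx33). The highest group mean of these genes was only 1.28, 1.13 and 1.47 times the lowest, so their r is not comparable with that of the called members. The 24 libraries include EKO WD at 22 weeks, and r takes in differences between group means. Tgfb1 and Thbs1, for example, had 0.84 over the 24 libraries and 0.62 over the 22 without that group.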

How the data were processed

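The authors deposited 1 table of FPKM values, made with Cufflinks after alignment to mm10, with 23284 gene symbols and 25 libraries. The submitters' notes list TopHat 1.3.2, Bowtie 0.12.8, Cuffdiff and SAMtools 0.1.19. The version of Cufflinks, the gene models and the use of strand are not given in the sources used here. Read counts cannot be recovered from these FPKM values, so depth and the precision it gives are unknown and no count test was run. FPKM depends on the sum of each library, and libraries were not rescaled.

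Values of 0 in replicate 2 of EKO WD at 22 weeks were taken as missing (8827 of the tested genes). The 12849 genes averaging 1 FPKM or more were tested on log2(FPKM + 1), so fold changes of low genes are understated. The model, fitted with limma 3.58.1 in R 4.3.3, had a mean for each group and used trend and robust variance moderation. It shared 1 estimate of the spread over 25 libraries, or over 24 for genes missing in the partial library. It was tested on simulated data. There were 21 contrasts: 12 comparisons, 6 differences between effects and 3 factors averaged over 4 strata. An adjusted p under 0.05 (Benjamini-Hochberg, within a contrast) counted as called. Since the sources do not tie libraries to separate animals one by one, p-values measure the spread between libraries. Correlations were tested by permutation in SciPy 1.17.1.

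The members, the lists and the 11 sets of cell type markers were chosen with earlier results of these data known. Named beside the members are, per list, the 3 genes with the highest mean, up to 3 called genes with the smallest p in a comparison and, per member, the 2 genes most like it, of which 1 is not reported here. Alternatives were zeros kept as deposited, pseudocounts of 0.1 and 5, no filter or a minimum of 5 FPKM, rescaled libraries, plain variance moderation, a replicate block, only the groups compared, and each library left out.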

Additional observations from a re-analysis of the deposited data

Results flagged for a closer look

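In 3 ways a difference in the size of an effect between levels of another factor was called, by a test of the difference itself in limma. The effect of WD at 22 weeks differed between DKO and EKO for Tgfb2 (-1.59) and Tgfbr1 (-1.36). The effect of time on WD differed between DKO and EKO for Ltbp2 (-1.29). Within EKO the effect of WD at 22 weeks exceeded that at 6 weeks for Tgfb2 (1.5), Tgfbr1 (1.45), Thbs1 (3.06) and Ltbp2 (1.95). All of these rest in part on the EKO WD libraries at 22 weeks, of which 1 is partial. Of 34 alternatives, the calls between genotypes were kept by 24 for Tgfb2, 31 for Tgfbr1 and 11 for Ltbp2. The calls within EKO were kept by 32 for Tgfb2, 33 for Tgfbr1, 31 for Thbs1 and 34 for Ltbp2. With only the groups compared in the fit, neither Tgfb2 nor Tgfbr1 was called for diet by genotype at 22 weeks.

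In DKO NLD at 6 weeks, the group with 4 libraries, Ltbp2 had 1 library apart from the others, at 17.6 FPKM against 18.6, 18.7 and 18.8 FPKM. Chance marks about 1 in 20 groups in this way, and the gap is small beside the spread of Ltbp2 in the other groups.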

How the results depend on the processing

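Of 38 called results of single members, 11 kept their direction and their call under all 34 alternatives, and of 1292 values in all, 1179 kept both, 103 lost the call and 10 reversed. All 10 reversals came with the zeros of the partial library kept as deposited, which sets the gene to 0 in 1 of 3 libraries of EKO WD at 22 weeks, and none was called. For DKO over EKO on WD at 22 weeks the values were then 0.81 for Tgfb1, 0.36 for Tgfbr1 and 0.04 for Thbs1. For WD over NLD in EKO at 22 weeks they were -0.75 for Tgfb1 and -0.50 for Tgfbr1, and for 22 over 6 weeks in EKO on WD -0.68 for Tgfb1 and -0.85 for Tgfbr1. The mean genotype difference of Tgfb1 was 0.06, and Tgfbr1 had 0.16 for diet by genotype at 22 weeks and -0.07 for diet by time in EKO. With those zeros kept, the number of members called was 2 in place of 5 for DKO against EKO on WD at 22 weeks, 1 in place of 5 for WD against NLD in EKO at 22 weeks, 1 in place of 4 for 22 against 6 weeks in EKO on WD, 0 in place of 2 for diet by genotype at 22 weeks, and 5 in place of 18 over the 12 comparisons. With the zeros kept, the number of all genes called also fell for the single comparisons. In that order it was 736 in place of 2758, 757 in place of 2506, 785 in place of 2469 and 25 in place of 564. With only the groups compared in the fit, 3 members were called for DKO against EKO on WD at 22 weeks, beside 1057 of all genes. The calls of Tgfb1 and Tgfbr1 were the ones lost. For diet by genotype at 22 weeks 0 members were then called, beside 99 of all genes. Leaving out 1 library at a time gave 4 to 5, 2 to 5, 3 to 4, 0 to 4 and 13 to 20 calls in the same order, and the 2 came without EKO WD replicate 1 at 22 weeks. Where only 1 EKO WD library was left for a gene at 22 weeks, it was assumed to vary like the other groups.

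The libraries were not paired by their replicate numbers. For the 77 pairs of libraries that share a number, deviations from group means had a median r of 0.0309 (from -0.395 to 0.363), and 6 of 24 libraries correlated best with their own number. With the replicate block, 1 member in place of 2 was called for diet by genotype at 22 weeks, and Tgfb2 had -1.59 (adjusted p = 0.0561). The block also gave 4 in place of 5 for WD against NLD in EKO at 22 weeks, 3 in place of 4 for 22 against 6 weeks in EKO on WD and 15 in place of 18 over the 12 comparisons. Over all genes the block also gave fewer calls, with 323 in place of 564 for diet by genotype at 22 weeks. The EKO WD group at 22 weeks, with 2 values for 6 of the 9 members, and the unknown depth limit these results.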
